A study of Mus musculus with 12 samples.

Results

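Keratins and the transcription factor p63 were followed through a mouse embryonic stem cell differentiation with the 9 keratin genes Krt5, Krt7, Krt8, Krt14, Krt15, Krt17, Krt18, Krt19 and Krt20 and with Trp63, the gene of p63. All probes of these 10 genes were taken, whatever their signal, which gave 13 probes of the 41174 probes and 10 genes of the 19096 named genes on the array. Total RNA was measured on 12 one-colour arrays, 4 per group, where each probe's Cy3 brightness reports the level of its transcript. The groups were mouse embryonic stem cells (mESC), cells at day 9 of differentiation (Day 9) and cells at day 14 (Day 14), and the study's design names cardiomyocyte differentiation as the course that the days belong to. Every sample carries one and the same culture text and a cell type tag of embryonic stem cells. That text gives plates coated with a crosslinked ELP, 2 days in ES medium lacking LIF, and a further 12 days in Glasgow minimum essential medium (GMEM) with 2.5% KSR (a serum replacement), 1% NEAA (non-essential amino acids) and 10 μM β-ME. The sampling day of the mESC group and the cell line are not given in the sources used here. Nothing says that the 4 arrays of a group came from separate cultures, so p-values measure only how these arrays vary, which can be technical spread. The 4 arrays of each group shared a slide and a scan that held no other group, and the effect of the slide cannot be told apart from that of the group.

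Keratins are the intermediate filament proteins of epithelial cells, and a filament is built from a type I keratin (Krt14, Krt15, Krt17, Krt18, Krt19 and Krt20 here) together with a type II keratin (Krt5, Krt7 and Krt8). Krt8 with Krt18 or Krt19 is the set of simple epithelia, including the earliest epithelia of the mouse embryo, while Krt5 with Krt14 marks the basal layer of stratified epithelia such as epidermis. Trp63 encodes a relative of p53 that stratified epithelia need for their formation and that is known to act on Krt5 and Krt14.

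In RefSeq's annotation of GRCm38.p6 the type II genes Krt7, Krt5 and Krt8 lie on chromosome 15, where Krt18 follows Krt8 with 0 protein-coding genes between them. The other type I genes lie on chromosome 11 in the order Krt20, Krt15, Krt19, Krt14 and Krt17, and Trp63 lies on chromosome 16. Promoter sequences were at hand for 6 of the 10 genes. Those of Krt8 and Krt18 are shown because these neighbours moved together, and those of Krt7 and Krt5 because these type II genes had their highest signal at day 14. Each runs 5′ to 3′ on the gene's own strand from 250 bases before the annotated transcription start to 30 bases after it, and comes from RefSeq, GRCm38.p6. Krt8 is at chr15:102004313-102004592 (minus strand), Krt18 at chr15:102027966-102028245 (plus strand), Krt7 at chr15:101412153-101412432 (plus strand) and Krt5 at chr15:101712876-101713155 (minus strand). Capitals mark matches on either strand to TATAAA (the TATA box), GGGCGG (the GC box bound by Sp1-type factors) and TGANTCA (the AP-1 site). They also mark the decamer that is a half-site of the p53 family.
Krt8: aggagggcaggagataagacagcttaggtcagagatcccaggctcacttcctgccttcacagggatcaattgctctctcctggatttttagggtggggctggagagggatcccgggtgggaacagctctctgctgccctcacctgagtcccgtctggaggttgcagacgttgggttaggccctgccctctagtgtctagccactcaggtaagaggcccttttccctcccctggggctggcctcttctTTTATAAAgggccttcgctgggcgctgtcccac
Krt18: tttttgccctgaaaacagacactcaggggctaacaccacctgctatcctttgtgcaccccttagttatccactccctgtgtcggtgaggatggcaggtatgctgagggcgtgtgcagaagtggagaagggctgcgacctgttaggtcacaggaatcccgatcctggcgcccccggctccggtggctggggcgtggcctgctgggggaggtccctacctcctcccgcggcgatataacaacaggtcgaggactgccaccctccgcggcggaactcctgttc
Krt7: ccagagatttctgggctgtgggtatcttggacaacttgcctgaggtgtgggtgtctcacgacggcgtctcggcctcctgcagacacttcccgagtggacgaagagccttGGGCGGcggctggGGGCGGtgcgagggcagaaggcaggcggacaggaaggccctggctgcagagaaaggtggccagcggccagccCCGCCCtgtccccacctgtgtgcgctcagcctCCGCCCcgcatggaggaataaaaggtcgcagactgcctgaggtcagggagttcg
Krt5: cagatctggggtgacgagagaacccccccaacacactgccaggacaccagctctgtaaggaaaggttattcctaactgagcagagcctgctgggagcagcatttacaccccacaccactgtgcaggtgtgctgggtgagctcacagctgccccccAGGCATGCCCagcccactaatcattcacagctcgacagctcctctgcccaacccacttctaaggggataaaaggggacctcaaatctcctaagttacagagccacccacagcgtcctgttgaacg
The Krt8 window held 2 overlapping TATA matches that begin 3 bases and 1 base before the start, and the Krt18 window held no match to any of the 4 motifs. Krt7 had 4 GC boxes, and Krt5 had a single p53-family half-site, which begins 95 bases before the start. Among all 32851 windows of this length, 13.1% held a TATA match, 34.7% a GC box, 7.46% an AP-1 site and 7.84% the decamer. The Krt20 window held a TATA match that begins 29 bases before the start. The start site of the window listed for Krt14 lies 1480 bases inside the gene, and that window is not shown. A match is a description of the letters only, and binding was not measured.

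Signals are given as log2 of the processed signal minus the 75th percentile of the array, so that a value of 0 is the signal of a probe at that percentile. Tests compare groups, and the level of a probe is not tested against that of another. Where signals of a list are summed, or a gene is called bright or dim, this describes probe signal and not amounts of transcript. A probe was tested where 3 or more arrays of any group showed it well above background, and was called where limma's Benjamini-Hochberg adjusted p over all 28385 tested probes was under 0.05 with a log2 fold change of at least 1 in either direction. Of the 13 probes 12 were tested. The exception was the second Trp63 probe, which was well above background on none of the 12 arrays. The other 12 probes include at least 1 of each gene, and the tested probe with the highest mean stands for a gene.

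At day 9 against mESC, 8 of the 12 probes rose, 1 fell and 3 were not called, where 40.1% of all tested probes were called (20.6% higher and 19.5% lower). The 8 probes belong to Krt7, Krt8, Krt15, Krt18, Krt19 and Krt20, and the one that fell is that of Krt17. At day 14 against mESC, 10 probes of 8 genes rose, 0 fell and those of Krt17 and Trp63 were not called, where 45.5% of all tested probes were called (23.3% higher and 22.2% lower). Between the days, 6 probes of Krt5, Krt7, Krt14, Krt15 and Krt17 were higher at day 14 than at day 9, both Krt8 probes were lower and 4 were not called, where 12.9% of all tested probes were called (9.66% higher and 3.23% lower). Counted by genes, day 9 against mESC gave calls for 7 of 10 (42% of the 15557 named genes tested), day 14 against mESC for 8 (48.1%) and day 14 against day 9 for 6 (15.6%). The median log2 fold changes of the 10 genes in these comparisons were 2.38, 3.34 and 1.10, beside medians of -0.12, -0.09 and -0.04 over all named genes tested. Array values of the 2 groups did not overlap for 9 of 10 genes when day 9 was set against mESC (81.2% of named genes tested), for 9 of 10 when day 14 was (87.6%), and for 7 of 10 from one day to the other (61%). The 3 comparisons share arrays and are not independent of each other. In RNA of whole cultures, a change in the number of keratin-bearing cells and a change in RNA per cell cannot be told apart.

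**Figure D1:**
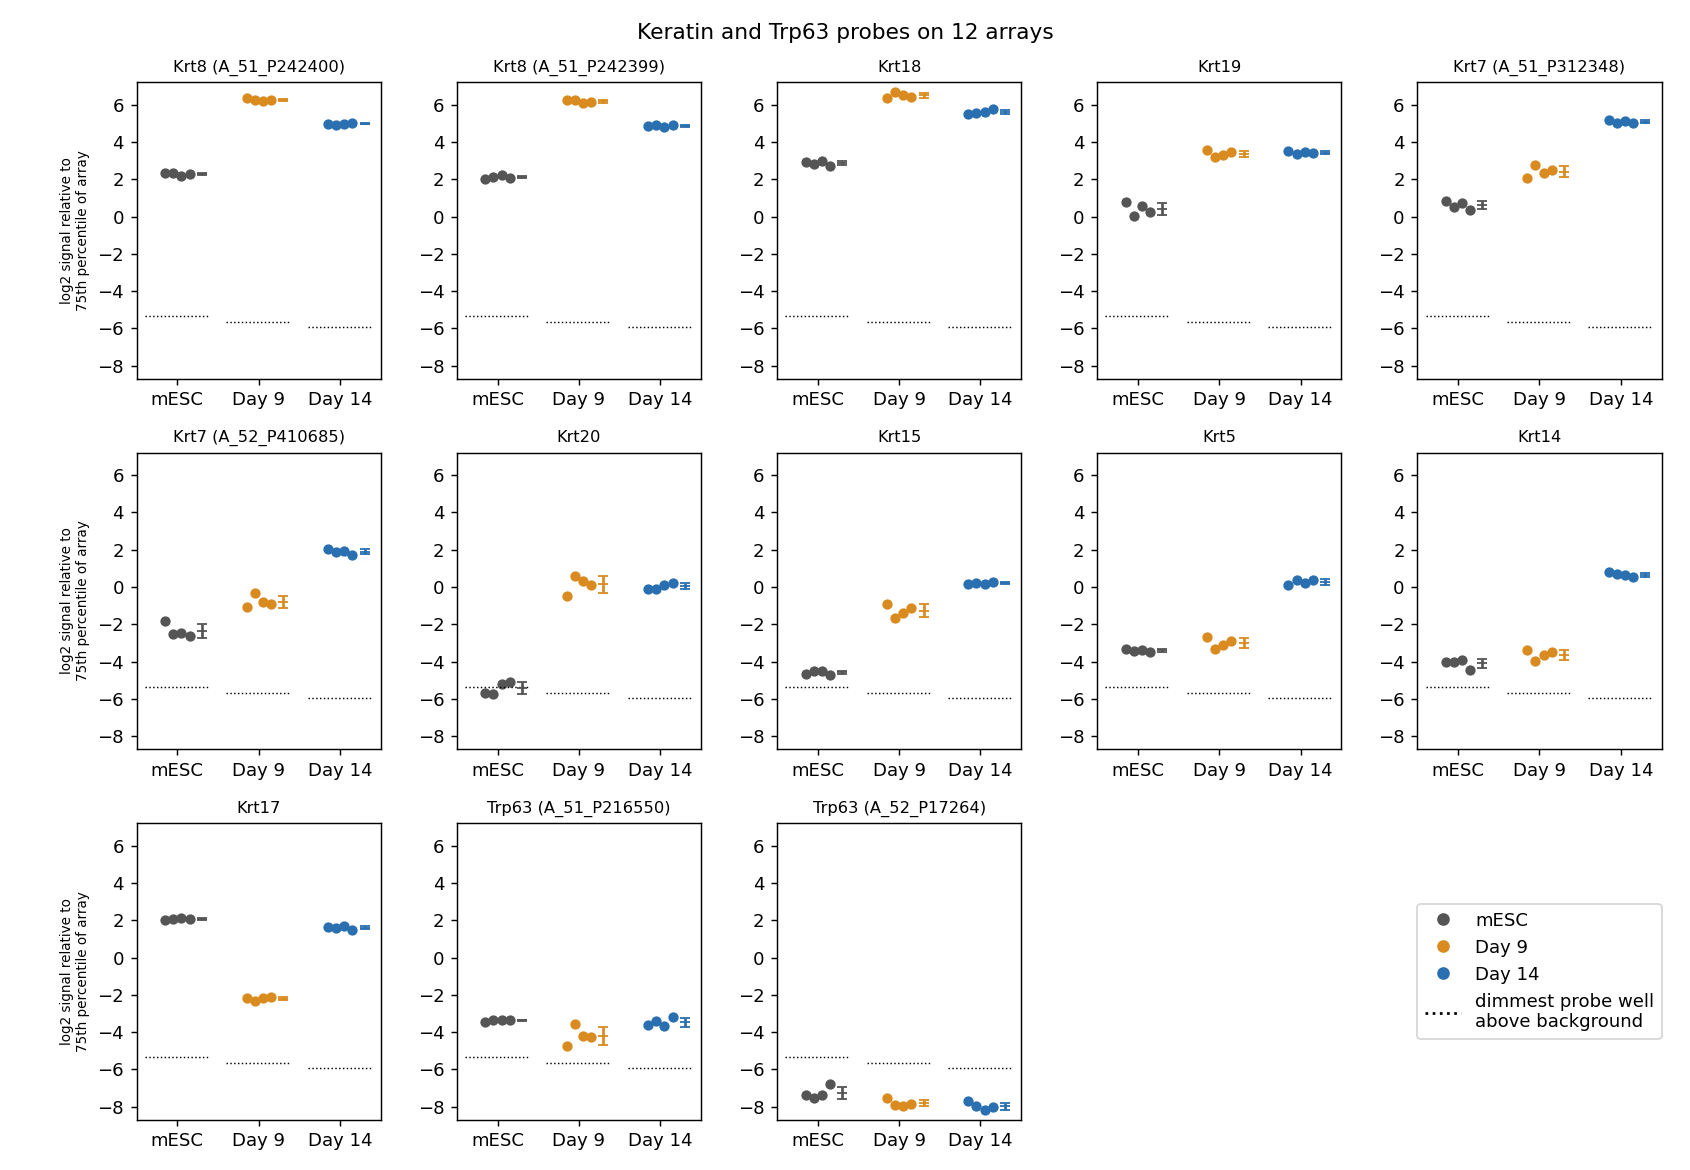
Log2 signal of each of the 13 probes relative to the 75th percentile of its array (vertical axis) on the 4 arrays of mESC, Day 9 and Day 14 (points), with the mean and SD beside them (n = 4) and, dotted, the mean over a group's arrays of the dimmest signal well above background. Krt8 and Krt18 are highest at day 9, Krt5, Krt7 and Krt14 at day 14, Krt17 is lowest at day 9, and the second Trp63 probe stays under the dotted line in all groups.

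The simple-epithelial pair Krt8 and Krt18 was highest at day 9. Krt8 (probe A_51_P242400), the type II keratin of simple epithelia, read 2.34, 2.32, 2.17 and 2.30 in mESC, 6.34, 6.25, 6.20 and 6.25 at day 9, and 4.98, 4.93, 4.97 and 5.00 at day 14. The groups were separate by many times the spread within them, with day 14 between the other 2 groups. Krt8 rose 15.8-fold at day 9 against mESC (log2 fold change 3.98 ± 0.05 SE, limma adjusted p = 6.1e-14) and 6.45-fold at day 14 against mESC (2.69 ± 0.05, adjusted p = 7.27e-13), and was 2.45-fold lower at day 14 than at day 9 (-1.29 ± 0.05, adjusted p = 2.95e-09). The second Krt8 probe, A_51_P242399, gave log2 fold changes of 4.06, 2.75 and -1.31 in the same 3 comparisons, at most 0.08 from the first.

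Krt18, the type I partner of Krt8, read 2.91, 2.82, 2.96 and 2.73 in mESC, 6.34, 6.69, 6.52 and 6.43 at day 9, and 5.51, 5.56, 5.60 and 5.74 at day 14. The order of the groups was that of Krt8, with no overlap between them. Krt18 rose 12.5-fold at day 9 against mESC (3.64 ± 0.08, adjusted p = 4.92e-12) and 6.73-fold at day 14 against mESC (2.75 ± 0.08, adjusted p = 3.81e-11). Its difference between the days, -0.89 ± 0.08 (adjusted p = 3.9e-06), stayed under the fold threshold and was not called. With normexp background correction it was -1.03 and with scaling to the median -1.08, and both were called.

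Krt19, a small type I keratin that pairs with Krt8 in ducts and other simple epithelia, read 0.76, 0.05, 0.58 and 0.23 in mESC, 3.55, 3.21, 3.29 and 3.44 at day 9, and 3.50, 3.35, 3.48 and 3.39 at day 14. Both days lay above all mESC arrays and overlapped with each other. Krt19 rose 7.82-fold at day 9 against mESC (2.97 ± 0.14, adjusted p = 2.12e-09) and 8.17-fold at day 14 against mESC (3.03 ± 0.14, adjusted p = 1.45e-09). Between the days it differed by 0.06 ± 0.14 (adjusted p = 0.716), and the sign turned with normexp (-0.062) and with scaling to the median (-0.13).

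Krt7, the type II keratin of ducts, mesothelium and other simple epithelia, was highest at day 14. Its brighter probe, A_51_P312348, read 0.81, 0.53, 0.73 and 0.36 in mESC, 2.05, 2.75, 2.31 and 2.49 at day 9, and 5.18, 5.03, 5.15 and 4.99 at day 14. The groups did not overlap, and each later group lay above the earlier. Krt7 rose 3.47-fold at day 9 against mESC (1.79 ± 0.14, adjusted p = 2.07e-07), 22.4-fold at day 14 against mESC (4.48 ± 0.14, adjusted p = 5.11e-11) and 6.44-fold at day 14 against day 9 (2.69 ± 0.14, adjusted p = 3.87e-08). Its dimmer probe, A_52_P410685, read -1.82, -2.54, -2.45 and -2.63 in mESC, -1.09, -0.34, -0.83 and -0.89 at day 9, and 2.06, 1.89, 1.93 and 1.73 at day 14. This probe was called in the same 3 comparisons, with 1.57 ± 0.19 (1.02 with normexp), 4.26 ± 0.19 and 2.69 ± 0.19, so both Krt7 probes gave the later group the higher level each time.

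Krt20, a type I keratin of intestinal epithelium and of the umbrella cells of the bladder, was not well above background on any mESC array and was well above it on all arrays of both days. It read -5.68, -5.72, -5.19 and -5.12 in mESC, -0.48, 0.58, 0.35 and 0.10 at day 9, and -0.09, -0.11, 0.12 and 0.23 at day 14. The 2 later groups overlapped. Against the dimmest signal well above background on each mESC array, Krt20 was at least 42.3-fold higher at day 9 than in mESC (adjusted p = 4.31e-10) and at least 39.5-fold higher at day 14 than in mESC (adjusted p = 4.05e-10). Day 14 differed from day 9 by -0.10 ± 0.22 (adjusted p = 0.711), and by 0.048 without Day 9 replicate 2, the highest of its 4 arrays.

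The basal keratins Krt5 and Krt14 stayed dim to day 9 and rose at day 14. Krt14, the type I keratin of basal cells, read -4.04, -4.02, -3.91 and -4.44 in mESC, -3.38, -3.99, -3.64 and -3.49 at day 9, and 0.78, 0.71, 0.64 and 0.53 at day 14. The first 2 groups overlapped and all 4 arrays at day 14 stood above both. Krt14 was 27.2-fold higher at day 14 than in mESC (4.77 ± 0.14, adjusted p = 3.33e-11) and 19.6-fold higher at day 14 than at day 9 (4.29 ± 0.14, adjusted p = 1.03e-09). Day 9 differed from mESC by 0.48 ± 0.14 (adjusted p = 0.00863), under the fold threshold.

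Krt5, the type II partner of Krt14, read -3.30, -3.43, -3.38 and -3.47 in mESC, -2.67, -3.30, -3.10 and -2.90 at day 9, and 0.08, 0.36, 0.20 and 0.39 at day 14. The lowest Day 9 array was level with the highest mESC array at this rounding, and day 14 was far above both groups. Krt5 was 12.6-fold higher at day 14 than in mESC (3.66 ± 0.12, adjusted p = 8.23e-11) and 9.54-fold higher at day 14 than at day 9 (3.25 ± 0.12, adjusted p = 2.54e-09), while day 9 differed from mESC by 0.40 ± 0.12 (adjusted p = 0.00914), which was not called.

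Krt15, a type I keratin of basal cells and of hair follicle stem cells, read -4.64, -4.49, -4.51 and -4.69 in mESC, -0.89, -1.69, -1.41 and -1.10 at day 9, and 0.15, 0.21, 0.17 and 0.29 at day 14. Unlike Krt5 and Krt14 it was called at day 9 already, with no overlap between any groups. Krt15 rose 9.95-fold at day 9 against mESC (3.32 ± 0.14, adjusted p = 8.75e-10), 27.6-fold at day 14 against mESC (4.79 ± 0.14, adjusted p = 3.1e-11) and 2.78-fold at day 14 against day 9 (1.47 ± 0.14, adjusted p = 4.75e-06). The sizes for probes this dim in mESC depend on the background correction: with normexp, Krt15 changed by 1.50 and 2.69 at day 9 and day 14 against mESC, Krt20 by 2.51 and 2.49, and Krt14 and Krt5 by 2.91 and 2.37 at day 14 against mESC, all of them still called. Krt14 and Krt5 were dim at day 9 too, and their changes at day 14 against day 9 were 2.88 and 2.25 with normexp, also still called.

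Krt17, a type I keratin of hair follicles and other skin appendages that is induced in wounded and stressed epidermis, was the member that fell at day 9. It read 2.01, 2.04, 2.10 and 2.08 in mESC, -2.17, -2.35, -2.17 and -2.11 at day 9, and 1.66, 1.56, 1.68 and 1.49 at day 14. All day 9 arrays were far below those of both other groups, and day 14 lay just under mESC without overlap. Krt17 was 19.1-fold lower at day 9 than in mESC (-4.26 ± 0.06, adjusted p = 1.78e-13) and 13.9-fold higher at day 14 than at day 9 (3.80 ± 0.06, adjusted p = 4.39e-12). Day 14 differed from mESC by -0.46 ± 0.06 (adjusted p = 2.2e-05), which was not called.

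Trp63 was not called in any comparison. Its probe A_51_P216550 was well above background on all arrays but dim, at -3.44, -3.37, -3.37 and -3.33 in mESC, -4.76, -3.56, -4.21 and -4.26 at day 9, and -3.64, -3.42, -3.68 and -3.17 at day 14. Day 9 was the lowest and most scattered group (SD 0.49, n = 4), and day 14 overlapped with both other groups. Log2 fold changes were -0.82 ± 0.21 at day 9 against mESC (limma adjusted p = 0.00299), -0.10 ± 0.21 at day 14 against mESC (adjusted p = 0.649) and 0.72 ± 0.21 at day 14 against day 9 (adjusted p = 0.0101), all under the fold threshold. Without Day 9 replicate 2 the first of these was -1.03 (adjusted p = 7.92e-05) and was called lower, and with normexp the second was 0.26. The second probe, A_52_P17264, read between -8.18 and -6.77 over the 12 arrays and was not well above background on any of them. Krt5 and Krt14 rose at day 14, where no change of Trp63 was called, and a link between these genes was not tested. The probes' places in the transcript are not given in the sources used here, so levels of single p63 isoforms were not resolved.

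**Figure D2:**
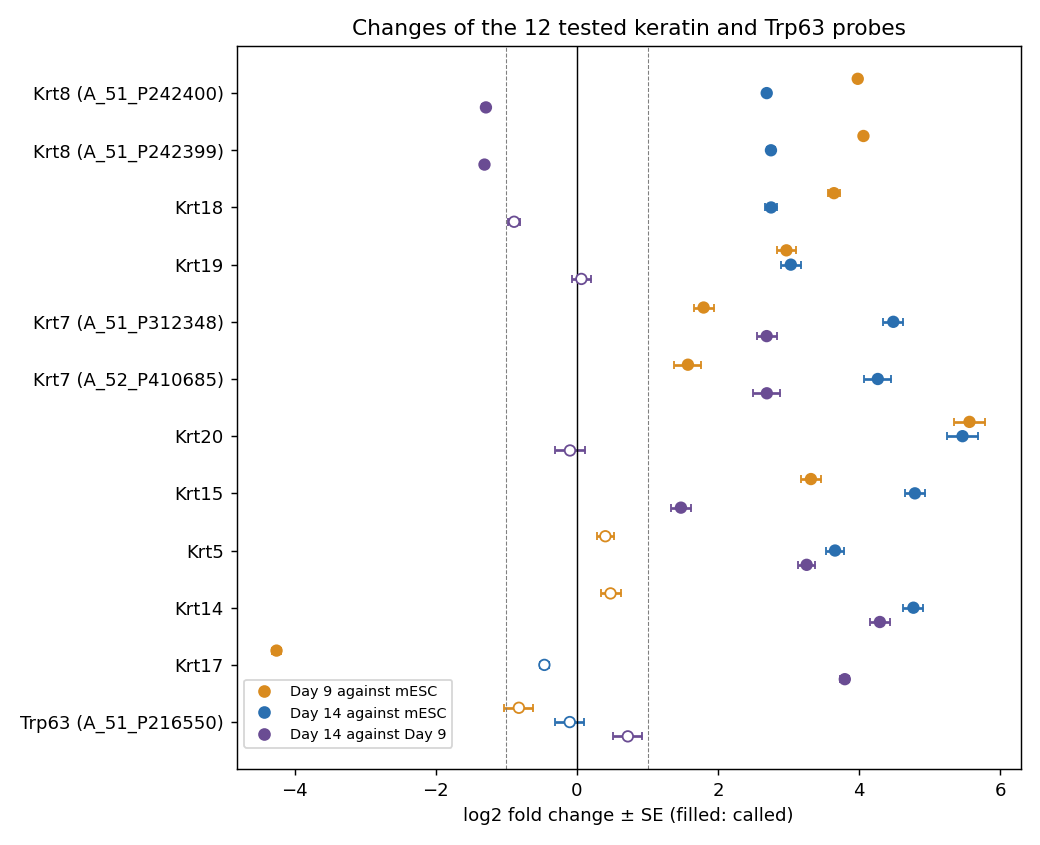
Log2 fold change with its SE (horizontal axis) of the 12 tested probes in the 3 comparisons, filled where called and open where not, with dashed lines at the fold threshold of 1. Krt20, whose mESC signal was not well above background so that its plotted change has no exact rank, changes by 5.56 at day 9 and 5.46 at day 14 against mESC (2.51 and 2.49 with normexp), the change of Krt17 is the lowest at day 9 against mESC, and all 3 Trp63 points are open.

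Whether partners changed by unequal amounts was tested on the difference between 2 genes within each array, compared between groups by an exact two-sided permutation test of 4 against 4 arrays. With 4 arrays per group the smallest p such a test can reach is 0.0286. Benjamini-Hochberg adjustment over the 15 tests made turned it into 0.0429 here, since many of them reached it. The adjusted value, and so each call, depends on how many tests do, and the tests share genes and arrays. Krt8 and Krt18 differed by -0.23 ± 0.19 at day 9 and by -0.57 ± 0.16 in mESC (SD, n = 4 each), so Krt8 gained 0.34 more than Krt18, which was not called (exact permutation test, adjusted p = 0.0779; 0.0429 without Day 9 replicate 2). Over the whole course to day 14 against mESC the pair changed by amounts 0.06 apart (-0.06, exact permutation test, adjusted p = 0.543). At day 14 against day 9 the change of Krt8 minus that of Krt18 was -0.40 (exact permutation test, adjusted p = 0.0429), and leaving out any 1 of the Day 14 arrays gave 0.0779.

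Krt19 gained less than Krt8 at day 9 against mESC, by 1.01, and less than Krt18, by 0.67 (exact permutation tests, adjusted p = 0.0429 each). The Krt18 value lost its call in 6 of the sets that leave out an array, namely without mESC replicate 1, 3 or 4 and without Day 9 replicate 2, 3 or 4, with adjusted p between 0.0714 and 0.0857 by the exact permutation test. At day 14 against mESC the differences of -0.34 from Krt8 and -0.28 from Krt18 were not called (exact permutation tests, adjusted p = 0.132 each). At day 14 against day 9 the change of Krt8 minus that of Krt19 was -1.35, and that of Krt18 minus Krt19 was -0.95 (exact permutation tests, adjusted p = 0.0429 each).

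Krt7 parted from Krt8 the most of the pairs compared. The change of Krt8 minus that of Krt7 was 2.18 for day 9 against mESC, -1.79 for day 14 against mESC and -3.98 for day 14 against day 9 (exact permutation tests, adjusted p = 0.0429 each). Krt5 and Krt14 changed by amounts 0.07 apart at day 9 against mESC (-0.07, exact permutation test, adjusted p = 0.543), a value whose sign turned with normexp (0.089, adjusted p = 0.039, called) and without mESC replicate 4 (0.014). At day 14 Krt5 minus Krt14 changed by -1.11 against mESC and by -1.04 against day 9 (exact permutation tests, adjusted p = 0.0429 each), which with normexp were -0.54 and -0.63, still called.

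**Figure D3:**
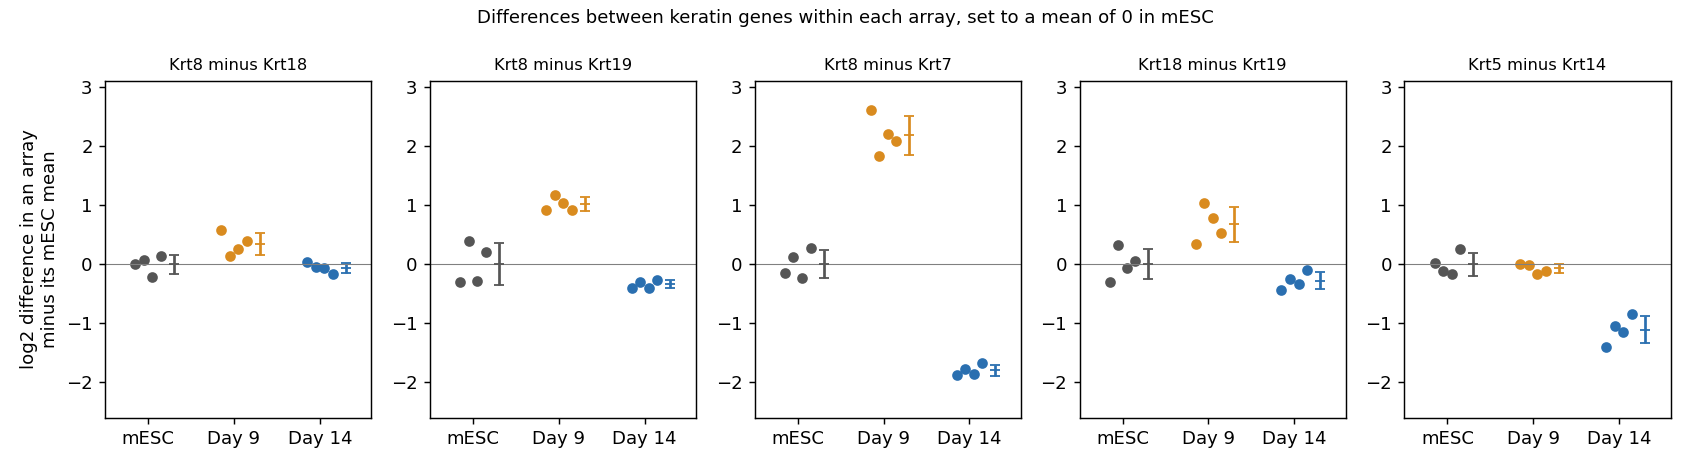
Difference in log2 signal between 2 keratin genes on each array (vertical axis), shifted so that the mean of the 4 mESC arrays is 0, for 5 gene pairs in mESC, Day 9 and Day 14, with points for arrays and bars for the mean and SD (n = 4). Krt8 minus Krt7 moves by 2.18 and -1.79, Krt8 minus Krt18 by 0.34 and -0.06, and Krt5 minus Krt14 by -0.07 and -1.11 at day 9 and day 14.

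Across the 12 arrays the members fell into a few shapes, described here by Pearson's r with no test, since the arrays form 3 groups that each share a slide. Krt8 and Krt18 had r = 0.99, Krt5 and Krt14 r = 1.00, and Krt19 and Krt20 r = 0.98. Krt15 stood between the early and the late keratins, at r = 0.95 with Krt19 and 0.93 with Krt7. Krt17 ran against Krt8 (r = -0.81) and was nearest to Trp63 (r = 0.78), the other member with its lowest values at day 9. Trp63 had r = 0.21 with Krt5 and 0.21 with Krt14.

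Among named genes outside the list, those closest in shape over the 12 arrays were Usp13 (r = 0.999), Rala (0.998) and Cdx2 (0.998) for Krt8. For Krt18 they were Gm3002, Bves and Frmd3, for Krt7 Fam131a, Egr2 and Ankrd44, for Krt19 Pcp4, Axl and Dubr, and for Krt20 Maob, Dusp6 and Vsnl1. Among the genes closest to the late keratins were Meox2 (r = 0.999) and Cd14 (0.997) for Krt5 and Cd84, P2ry6 and Dhrs3 for Krt14 (0.998 each). Krt15 was closest to Zfp637, Tmem109 and 2810032G03Rik, and Krt17 to Aldh3b1, Eps8 and Scara5. The genes nearest to Trp63 lay further off, at r = 0.970 with Nat8l, 0.964 with 9330102E08Rik and 0.962 with Ccdc184. With 3 groups of arrays, such values say little more than that 2 genes share the order and spacing of the group means.

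The keratin genes outside the list were mostly dim. Of 34 such genes, 13 were well above background on no array and 17 were tested. At day 9 against mESC 1 rose and 3 fell, where 21.2% of named genes were called higher and 20.7% lower, and at day 14 against mESC 6 rose and 3 fell, beside 25.4% and 22.8%. Between the days 4 were higher at day 14 and 0 lower, beside 12.2% and 3.41%. Krt16, a type I keratin induced with Krt17 in wounded epidermis, read a mean of -0.03 in mESC, -2.20 at day 9 and -1.93 at day 14. It fell at day 9 like Krt17 (-2.17 ± 0.12, limma adjusted p = 1.03e-08) but was still called lower at day 14 against mESC (-1.90 ± 0.12, adjusted p = 2.9e-08), where Krt17 was not called. Krt6a, a type II partner of Krt16 and Krt17, was well above background at day 14 alone, where it was at least 1.53-fold higher than in mESC and at least 1.91-fold higher than at day 9 (adjusted p = 0.000172 and 0.000867). Krt75, a type II keratin of the hair follicle, rose by 1.86 ± 0.12 at day 14 against mESC (adjusted p = 4.4e-08), and Krt23, a type I keratin, by 2.13 ± 0.18 at day 14 against day 9 (adjusted p = 2.2e-06). Krt1, a type II keratin of the upper epidermis, was at least 2.97-fold higher at day 9 and at least 2.04-fold higher at day 14 than in mESC, while Krt10, its type I partner, which is named after its values were seen, was called in none of the 3 comparisons.

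Genes of desmosomes and hemidesmosomes, the junctions that anchor keratin filaments, included called genes in both directions. Of 17 tested genes, 3 rose and 4 fell at day 9 against mESC, 6 rose and 4 fell at day 14 against mESC, and 4 were higher and 2 lower at day 14 than at day 9, with median log2 fold changes of -0.34, -0.09 and 0.11. Among all named genes tested, 21.2% were called higher and 20.7% lower at day 9 and 25.4% and 22.8% at day 14, both against mESC, and 12.2% and 3.41% at day 14 against day 9, so the day 9 counts lie near those shares. Dsp, the desmoplakin that ties keratins to the desmosome, rose with Krt8 and Krt18 at day 9 (2.99 ± 0.11, limma adjusted p = 1.8e-10) and was lower again at day 14 than at day 9 (-1.90 ± 0.11, adjusted p = 6.57e-08), though another Dsp probe was not called alike in the comparisons with day 14. Dsc2, a desmosomal cadherin of simple epithelia and heart, rose by 4.78 ± 0.13 at day 9 and 5.15 ± 0.13 at day 14 against mESC (adjusted p = 2.48e-11 and 1.08e-11). Its probe was well above background on only 2 of the 4 mESC arrays (mean -5.44), so the sizes of these changes are uncertain. Pkp1, the plakophilin of stratified epithelia, was well above background at day 14 alone, at least 3.94-fold over mESC and at least 4.96-fold over day 9, in the group where Krt5 and Krt14 were high. Ppl, the periplakin of the cornified envelope, was higher at day 14 than at day 9 by 2.28 ± 0.17 (adjusted p = 7.13e-07). Pkp3, another plakophilin, fell at day 9 against mESC (-2.62 ± 0.14, adjusted p = 6.27e-09), as did the hemidesmosome integrin gene Itgb4 (-2.58 ± 0.08, adjusted p = 3.74e-11).

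Of the p63 family, epidermal regulator and epidermal differentiation genes, 19 were tested, of which 3 rose and 10 fell at day 9 against mESC, 5 rose and 10 fell at day 14 against mESC, and 2 were higher and 2 lower at day 14 than at day 9. The medians were -1.18, -1.16 and 0.26, and the shares over all named genes were 21.2% higher and 20.7% lower at day 9 and 25.4% higher and 22.8% lower at day 14, with 12.2% and 3.41% between the days. Trp73, the gene of p73, which with Klf4 is named after its values were seen, fell at both days against mESC (-1.30 ± 0.06 and -1.16 ± 0.06, limma adjusted p = 1.04e-09 and 2.4e-09). Klf5, Klf4 and Tfap2c, transcription factors that both stem cells and epidermis express, fell at day 9 against mESC, with log2 fold changes of -4.35, -3.79 and -3.39. Tgm1, the transglutaminase of the cornified envelope, fell too (-4.37 ± 0.05 at day 9 and -4.11 ± 0.05 at day 14 against mESC, adjusted p = 3.96e-14 and 4.35e-14). Krtdap was also called lower at both days. Other differentiation genes went the other way. Sprr1a, a cornified envelope precursor, was higher at day 14 than at day 9 (1.49 ± 0.12, adjusted p = 9.41e-07) and than in mESC (1.82 ± 0.12). Against mESC, Lor was called higher at day 9 and day 14 (2.35 ± 0.11 and 2.82 ± 0.11), and Sbsn at day 14 (1.41 ± 0.06). Calml3, not well above background in mESC, was called higher at day 14. Lor, Sbsn and the mESC comparisons of Sprr1a and Calml3 are given after their values were seen. Fgfr2, the receptor gene whose epithelial form responds to keratinocyte growth factor, was at least 41.1-fold higher at day 9 than in mESC, and many mesenchymal cells express it too.

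Beside the rise of Krt8, Krt18 and Krt19, called simple epithelium genes went in both directions. Of 24 tested genes, 6 rose and 9 fell at day 9 against mESC, 4 rose and 9 fell at day 14 against mESC, and 3 were higher and 2 lower at day 14 than at day 9, with medians of -0.05, -0.44 and -0.49. The share called higher over all named genes was 21.2% at day 9 and 25.4% at day 14, and the share called lower 20.7% and 22.8% (12.2% and 3.41% between the days), so the count of genes that rose at day 9 is close to its share. Cdh1, the cadherin of epithelia and of embryonic stem cells, fell against mESC (-3.55 ± 0.17 at day 9 and -3.94 ± 0.17 at day 14, limma adjusted p = 2.5e-09 and 8.05e-10), and Epcam, another surface protein of both that is named after its values were seen, was called in no comparison. Cldn6, a tight junction gene of embryonic epithelia, followed the order of Krt8: 3.54 ± 0.18 for day 9 against mESC, 2.00 ± 0.18 for day 14 against mESC and -1.55 ± 0.18 for day 14 against day 9 (adjusted p = 3.59e-09, 5.69e-07 and 1.87e-05). The summed signal of the 24 genes, in units of the array's 75th percentile, was 69.6 to 72.5 in mESC, 38.2 to 49.3 at day 9 and 26.4 to 27.9 at day 14.

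Of 16 tested genes of the other intermediate filaments, 5 rose and 5 fell at day 9 against mESC, 5 rose and 4 fell at day 14 against mESC, and 3 were higher and 0 lower at day 14 than at day 9. Named genes as a whole were called higher in 21.2%, 25.4% and 12.2% and lower in 20.7%, 22.8% and 3.41% of cases in these comparisons. Vim, the vimentin of mesenchymal cells, rose at both days against mESC (2.94 ± 0.06 and 2.83 ± 0.06, limma adjusted p = 1.66e-12 and 1.82e-12), as did Des, the desmin of muscle (3.39 ± 0.17 and 2.93 ± 0.17, adjusted p = 3.38e-09 and 1.04e-08). Nefh, a neurofilament gene, fell against mESC (-5.40 ± 0.07 at day 9 and -4.54 ± 0.07 at day 14, adjusted p = 1.13e-13 and 2.92e-13). At day 9 the keratins Krt8 and Krt18 thus rose in the same cultures as vimentin and desmin, and from these values it cannot be told whether in the same cells.

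**Figure D4:**
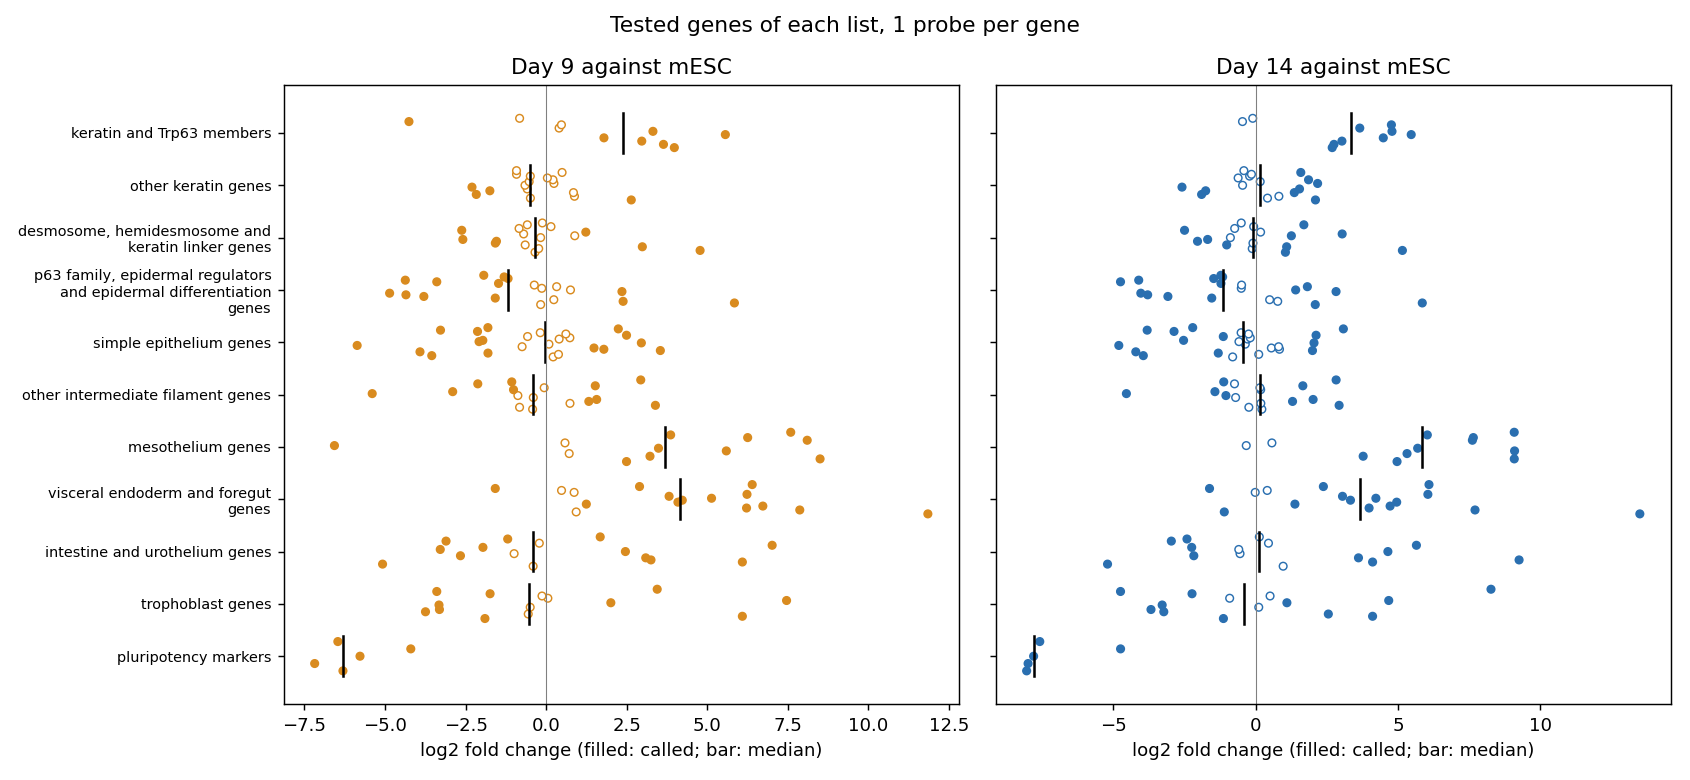
Log2 fold change at day 9 (left) and day 14 (right) against mESC of the tested genes among the keratin and Trp63 genes and in 10 gene lists, 1 probe per gene, filled where called, with a bar at the list's median. The 10 keratin and Trp63 genes have medians of 2.38 and 3.34, the mesothelium genes 3.68 and 5.86 and the visceral endoderm and foregut genes 4.16 and 3.66, while other keratins, desmosome genes and simple epithelium genes lie around 0.

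Lists of markers were also read for cell types known to carry these keratins. Most genes of the visceral endoderm and mesothelium lists rose, while those of the intestine, urothelium and trophoblast lists went both ways, and the part of such cells in the keratin values was not tested. For each list the shares over all named genes were 21.2% higher and 20.7% lower at day 9, 25.4% and 22.8% at day 14, and 12.2% and 3.41% between the days. Of the visceral endoderm and foregut genes, epithelia in which Krt8, Krt18 and Krt19 are expressed, 12 of 16 tested rose and 1 fell at day 9 against mESC, 12 rose and 2 fell at day 14 against mESC, and 1 was higher and 3 lower at day 14 than at day 9. All 16 were well above background on some array of each day, and 6 were so on no mESC array. Their summed signal was 31.4 to 35.2 in mESC, 87.2 to 108 at day 9 and 169 to 180 at day 14. Single genes carried much of it: Rhox5, a homeobox gene, gave up to 33.6 of it in mESC, and Afp up to 54.4 on the Day 9 arrays and up to 132 on the Day 14 arrays. Without these 2 genes the sum of the other 14 was 1.47 to 1.60 in mESC, 40.9 to 45.8 at day 9 and 34.9 to 39.8 at day 14. Gata6 was the brightest of these 14 at both days (mean log2 signal 4.79 at day 9 and 4.60 at day 14). A single gene thus still carried much of the reduced sum. For day 14 against day 9 the list's median log2 fold change was -0.41. Their median log2 fold changes, 4.16 and 3.66 at the 2 days against mESC, were 3.95 and 3.21 with the 6 genes that have only a bound set at it. Afp, the alpha-fetoprotein of yolk sac and fetal liver, was at least 1673-fold higher at day 9 and at least 5230-fold higher at day 14 than in mESC.

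Mesothelium, the lining of the body cavities and the heart, carries Krt7, Krt8, Krt18 and Krt19. Of its 12 tested genes 9 rose and 1 fell at day 9 against mESC, 10 rose and 0 fell at day 14 against mESC, and 8 were higher and 0 lower at day 14 than at day 9. Their summed signal was 5.25 to 5.75 in mESC, 7.7 to 14.5 at day 9 and 31.2 to 37.5 at day 14. The group means of Krt7 had this order, as did those of Krt5, Krt14 and Krt15 and the full visceral endoderm and foregut sum. The order is thus not particular to Krt7 or to this list. Without Bnc1, Msln and Upk3b, each the brightest gene of the list in 1 of the groups, the sum was 0.445 to 0.498 in mESC, 5.35 to 7.93 at day 9 and 18.1 to 22.2 at day 14. Of the 13 genes of this list on the array, 7 were well above background on no mESC array, 1 on no Day 9 array and 0 on no Day 14 array. Their medians at the 2 days against mESC, 3.68 and 5.86, were 3.44 and 5.75 with the 7 genes that have only a bound set at it. Wt1, a transcription factor of mesothelium and epicardium, was at least 64.6-fold higher at day 9 and at least 181-fold higher at day 14 than in mESC. The one that fell was Msln, the mesothelin gene, which had the group order of Krt17: -6.57 ± 0.13 for day 9 against mESC, -0.33 ± 0.13 for day 14 against mESC (not called) and 6.24 ± 0.13 for day 14 against day 9 (limma adjusted p = 1.37e-12, 0.0296 and 2.26e-11).

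For Krt20, the list of its known tissues was split. Of 15 tested intestine and urothelium genes, 6 rose and 6 fell at day 9 against mESC, 5 rose and 5 fell at day 14 against mESC, and 3 were higher and 4 lower at day 14 than at day 9. Tff3 and Fabp1, genes of intestinal epithelium, were at least 39.5-fold and at least 7.82-fold higher at day 9 than in mESC, while Upk2 and Upk3a, uroplakins of the umbrella cells, fell at day 9 against mESC. Upk2 was not well above background on the Day 9 arrays and was at least 5.69-fold lower there than in mESC (limma adjusted p = 2.44e-05), and Upk3a changed by -1.19 ± 0.36 (adjusted p = 0.00873). The intestine genes themselves went both ways at day 9 against mESC. Cdx1 was at least 6.93-fold lower and Lgals4 changed by -3.29 ± 0.06, while Cdx2, also in the trophoblast list, was at least 47.6-fold higher. At day 14 against mESC, Fabp1 was at least 500-fold and Isx at least 5.36-fold higher. Cdx1 was at least 8.3-fold lower there, and Lgals4 was not called (-0.59 ± 0.06). Uroplakin genes also went both ways: Upk1a was not called, and Upk1b and Upk3b, counted in the mesothelium list, rose at day 9 against mESC. The day 9 value of Fabp1, the day 14 value of Lgals4 and those of these uroplakin genes are given after their values were seen. The list's summed signal was 4.22 to 4.61 in mESC, 4.43 to 4.73 at day 9 and 14.4 to 16.4 at day 14. Fabp1 alone gave 11.4 to 13.3 of it on the Day 14 arrays. Of 14 tested trophoblast genes, whose cells also carry Krt7, Krt8 and Krt18, 4 rose and 6 fell at day 9 against mESC, 5 rose and 6 fell at day 14 against mESC, and 2 were higher and 3 lower at day 14 than at day 9. Their summed signal was 17.8 to 19.3 in mESC, 12.5 to 15.9 at day 9 and 8.53 to 9.65 at day 14. Without Ets2, Hand1 and Tfap2c, each the brightest in 1 of the groups, it was 6.35 to 7.33, 4.06 to 4.48 and 3.75 to 4.60. The 2 days then overlapped, so the fall between them rested on these bright genes.

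As a check of the labels, all 5 pluripotency genes fell and all 6 cardiomyocyte genes rose at both days against mESC. Pou5f1, the stem cell factor Oct4, changed by -5.78 ± 0.21 and -7.80 ± 0.21, and Myh6, an atrial and ventricular myosin gene, by 7.33 ± 0.31 and 7.35 ± 0.31 at day 9 and day 14 against mESC (limma adjusted p = 2.16e-10 and 1.43e-11, and 8.11e-10 and 6.48e-10). The 75th percentile of the signal was 343 to 384 in mESC, 376 to 419 at day 9 and 434 to 478 at day 14, 59.5% to 67.9% of probes were well above background on an array, and arrays of a group had r between 0.9888 and 0.9961 over probes. Scaling to the median in place of the 75th percentile moved the median log2 fold change of all tested probes to -0.43, against -0.12, at day 14 against mESC.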

How the data were processed

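Spot intensities were read per the file headers with Agilent Feature Extraction 12 from one-colour arrays. The deposited processed signal is an intensity from which the authors' software had subtracted background, and it is not scaled between arrays. Flags for background, saturation and outlier spots are in the same deposited files. Here control spots and 792 outlier spots were left out, log2 signals were scaled to the 75th percentile of each array, and spots of a probe were averaged. limma 3.58.1 in R 4.3.3 fitted group means over all 12 arrays, and p-values were Benjamini-Hochberg adjusted over 28385 tested probes. Where every array of a group lacked a signal well above background, the fold is given as a bound ("at least"): the bright group's mean over the dim group's mean of the higher of each array's dimmest signal well above background and the probe's own. Probes were named through their accessions with RefSeq's GRCm38.p6 gene table, which named 28223 of 41174 probes. The number of arrays limits the precision. The fits were tested on simulated data.

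Other genes were named by rule: called keratin genes with the largest changes (up to 6 per comparison), up to 4 such genes per list and comparison, and for each member probe the 3 genes closest in Pearson's r. Some genes that the rule names are not reported here. The members, lists and tests were chosen with earlier results of these data known. Alternatives were another background correction, scaling, filter on dim probes, unit tested, variance model, source of values and call rule, the replicate number as a block, and leaving out each array. The background alternative, normexp with an offset of 50, was planned on the mean spot signal and run on the median spot signal, the column used here. The series' value table held the same intensities as the array files as deposited (0 differences). No column was left unmapped.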

Additional observations from a re-analysis of the deposited data

How the results depend on the processing

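Called probes numbered 11385 for day 9 over mESC, 12907 for day 14 over mESC and 3659 for day 14 over day 9. With normexp background correction they were 5877, 7222 and 1487, with only probes well above background on all arrays 7141, 8282 and 1589 (fewer probes tested), and with the adjusted p alone 23542, 24203 and 17601. Leaving out each array in turn gave 11299 to 11454, 12878 to 12912 and 3599 to 3702 called probes, 9 to 10, 10 and 8 called keratin and Trp63 probes, and 2 to 3, 2 and 4 to 5 called partner differences. Scaling to the median turned the split of higher and lower calls to 5385 and 6329, against 5848 and 5537 with the 75th percentile, for day 9 over mESC, to 5527 and 8854, against 6601 and 6306, for day 14 over mESC, and to 2235 and 1486, against 2742 and 917, for day 14 over day 9.

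Of 1074 alternative values for single probes and pairs, 1048 kept their direction and call, 10 gained and 10 lost a call, and 6 turned their sign, and the cause was not tested. The last were Trp63 at day 14 against mESC (0.26 with normexp, adjusted p = 0.55 by limma), Krt19 at day 14 against day 9 (-0.062 with normexp and -0.13 with scaling to the median), Krt20 at day 14 against day 9 (0.048 without Day 9 replicate 2, with -0.31 to 0.048 over the arrays left out) and Krt5 minus Krt14 at day 9 against mESC (0.089 with normexp, and -0.13 to 0.014 over the arrays left out). With the replicate number as a block (replicate block), 11385, 12908 and 3657 probes were called and no keratin or Trp63 call changed. Same-numbered arrays deviated together with correlations between -0.07 and 0.19, and 4 of 12 were best with their own number. With 4 arrays per group such a check cannot show whether arrays of the same number are related, and the labels give only the number. Low signal limits all values of Trp63, the mESC values of Krt5, Krt14, Krt15 and Krt20, and the Day 9 values of Krt5 and Krt14. The changes of these 4 keratins at day 14 against mESC moved more with the background correction than those of any other tested keratin or Trp63 probe in that comparison.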
